A study of Fukomys damarensis and Heterocephalus glaber and Cavia porcellus with 28 samples.

Results

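The genes described here sense microbial nucleic acids and cell wall products, carry the signal to interferon production, or are switched on by interferon. They were chosen by symbol from a list of 49 genes, of which 34 have a row in the heart and liver tables, out of 13928 rows in each. The other 15 (Tlr5, Tlr6, Tlr9, Nlrp3, Ticam1, Ifnar2, Ifngr1, Mx2, Oas2, Oas3, Isg15, Ifi35, Ifit2, Bst2 and Trex1) were not analysed here. The study sequenced ribosomal-RNA-depleted total RNA from the hearts and livers of animals of 4 rodent species to follow how gene expression evolved in mole-rats. The naked mole-rat (Heterocephalus glaber) and the Damaraland mole-rat (Fukomys damarensis) are the mole-rats, and the guinea pig (Cavia porcellus) and the mouse (Mus musculus) are the outgroups. No treatment or infection is named in the labels.

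The 14 heart libraries came from 3 naked mole-rats, 5 animals of the Damaraland species, 3 guinea pigs and 3 mice, and the 14 liver libraries from 4, 5, 3 and 2 animals in the same order. The labels name each animal, and 10 of 18 animals gave both tissues. Naked mole-rats were 13 to 17 months old, Damaraland mole-rats 36 to 48 months, guinea pigs 2.3 months and mice 2 months. Age therefore moved with species, and the part of each cannot be told apart in any comparison below. One Damaraland animal carries an age of 48 months on its heart label and 36 months on its liver label. All animals were labelled male except the one that gave Damaraland liver replicate 4.

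Toll-like receptors at the cell surface and in endosomes, and RNA and peptidoglycan sensors in the cytosol, signal through adaptors such as Myd88 and Mavs to the kinase Tbk1, the interferon regulatory factors and NF-kappa-B. Secreted interferon binds its receptors on the same and neighbouring cells, and STAT proteins with Irf9 then switch on antiviral effectors. Heart muscle and liver both express much of this system without infection, in resident macrophages as well as in the cells that give the organ its function.

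The deposited values lie on a log2-like scale, on which 0 reads correspond to 5.3645 (heart) or 4.2893 (liver). The scale compresses rare genes: a 2-fold change from 10 scaled reads moves the heart value by 0.282 and the liver value by 0.392, and one from 1000 moves them by 0.946 and 0.973. Scaled reads are whole reads recovered from the values and divided by a size factor for each library. Libraries held 4089633 to 26985779 reads in heart and 11220505 to 21467939 in liver. The lowest total belonged to naked mole-rat heart replicate 3, and each count of members called in heart below was the same without that library except where stated. Neither scale corrects for differences between species in gene length or in how reads were assigned to genes, and their part in the differences was not tested. In these whole-tissue samples, fewer cells of a type and less RNA per cell cannot be told apart.

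Marker genes of each organ were compared between the tissues. Heart muscle markers summed to between 515510 and 1632080 scaled reads in the heart libraries and to between 484 and 3131 in the liver libraries. Naked mole-rat hearts held 10707 to 30682 scaled reads of 4 liver cell markers. The same sum was 1762 to 5137 in Damaraland, 420 to 1953 in guinea pig and 322 to 1131 in mouse hearts. All 4 markers were higher in mole-rat than in outgroup hearts on average, and their part in the heart results was not tested. The 6 macrophage markers in the tables summed to between 502 and 963 scaled reads in naked mole-rat hearts, 1522 to 3548 in Damaraland, 1766 to 2159 in guinea pig and 1694 to 2319 in mouse hearts. In liver the same markers summed to 3076 to 6606, 1790 to 3752, 3971 to 7092 and 3025 to 3558 in that order. Cd163, one of these markers, had 0 reads over the naked mole-rat livers. The 5 T and NK cell markers summed to 1162 to 1769 scaled reads in guinea pig liver and to 8.91 to 50.9 in the other livers.

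A gene was tested with limma where its mean lay at least 1 above the value of a gene with 0 reads, which held for 28 members in heart and 33 in liver. It was called at an adjusted p (Benjamini-Hochberg over all genes tested in the tissue) under 0.05 and a difference of at least 1. The first comparison asked whether mole-rats differ from the outgroups, as the mean of the mole-rat species minus the mean of the outgroup species. In heart, 6 of 28 members were called. Irf3 was higher in mole-rats, and Rsad2, Eif2ak2, Nod1, Ifngr2 and Samhd1 were lower. Of all 10667 heart genes tested 23.4% were called, 10.8% higher and 12.6% lower. In liver, 7 of 33 members were called, with Tlr3, Pycard and Isg20 higher and Rsad2, Eif2ak2, Irf5 and Samhd1 lower. Of all 10887 liver genes tested 28.1% were called, 15.1% higher and 13% lower, so the members were called at about the rate of all genes. With voom on the recovered reads the members called were 11 in heart (3 higher, 8 lower) and 12 in liver (7 higher, 5 lower), and with quantile normalisation the heart split was 2 higher to 5 lower.

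**Figure D1:**
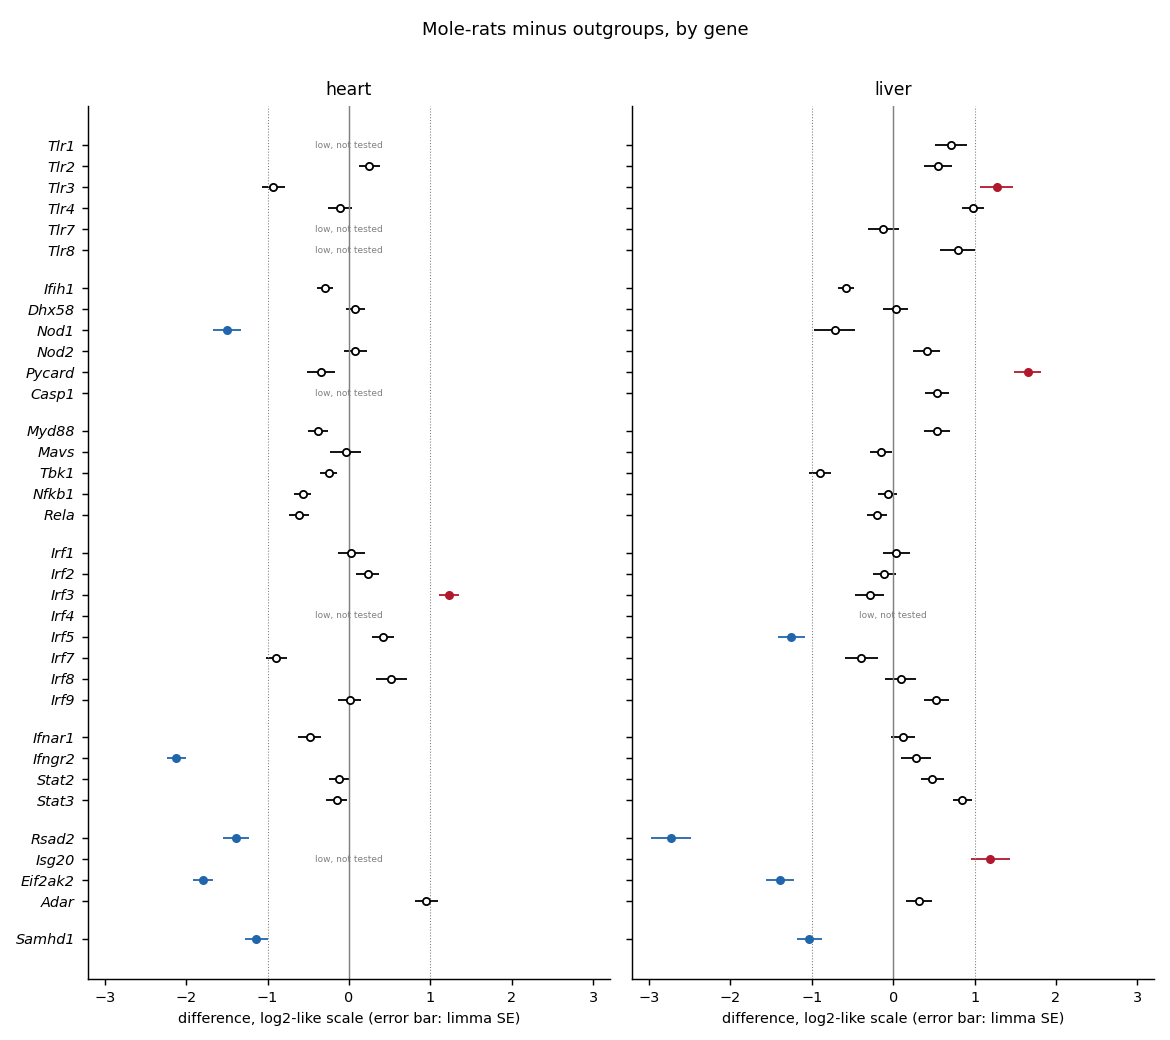
Difference between mole-rats and outgroups on the log2-like scale (x axis) for each of the 34 members (y axis, grouped by role), in heart (left) and liver (right). Points are limma differences, bars are limma standard errors, dotted lines mark a difference of 1 in either direction, and filled points were called (red higher, blue lower in mole-rats). Liver Rsad2 lies farthest to the left at -2.73, and Eif2ak2 lies left of the dotted line in both tissues.

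A stricter rule asked that each mole-rat species differ from each outgroup species, with 4 calls of the same sign. It held for 1 of 28 members in heart, Eif2ak2, and for 1 of 33 in liver, Rsad2, against 4.68% and 6.29% of all genes tested. Both were lower in mole-rats, and both are antiviral effectors that interferon induces. With voom the rule held for 3 members in heart (Eif2ak2, Nod1 and Rsad2) and for Rsad2 in liver. Without guinea pig heart replicate 1 it held for Eif2ak2 and Nod1. Every mole-rat library lay on one side of every outgroup library for 4 heart members, against 15.2% of all genes. Irf3 lay above, and Nod1, Eif2ak2 and Samhd1 lay below. The same held for 2 liver members, Rsad2 and Tbk1, both below, against 16.1% of all genes.

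Among the effectors, Rsad2 (ENSMUSG00000020641) encodes viperin, an enzyme that blocks the replication of many viruses. In liver it read 6.28, 6.27, 6.50 and 6.88 in naked mole-rats, 6.34, 5.05, 6.53, 5.99 and 5.22 in Damaraland mole-rats, 9.09, 9.15 and 8.28 in guinea pigs and 8.73 and 9.15 in mice. The highest mole-rat liver stood well below the lowest outgroup liver, and the mole-rats overlapped each other. The mole-rat minus outgroup difference was -2.73 (SE 0.24, adjusted p = 2.57e-08 with limma). Guinea pig livers held 7.79 times the mean scaled reads of naked and 14.7 times those of Damaraland mole-rats, and mouse livers 8.14 and 15.4 times. In heart it read 6.83, 6.97 and 6.86 in naked mole-rats, 6.79, 7.47, 7.46, 7.39 and 7.94 in Damaraland mole-rats, 7.88, 8.44 and 8.09 in guinea pigs and 9.26, 8.65 and 8.91 in mice. Here the highest Damaraland heart reached into the guinea pig range, and the species means were 6.89, 7.41, 8.14 and 8.94 in that order. The average difference was -1.39 (SE 0.16, adjusted p = 1.02e-06 with limma), and the Damaraland minus guinea pig difference of -0.73 (SE 0.21) did not reach the size asked for.

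Eif2ak2 (ENSMUSG00000024079) encodes the kinase PKR, which is activated by double-stranded RNA and shuts down translation. Heart values were 6.97, 7.03 and 7.53 in naked mole-rats, 6.66, 6.32, 6.48, 6.55 and 6.90 in Damaraland mole-rats, 8.77, 8.98 and 8.73 in guinea pigs and 8.50, 8.52 and 8.49 in mice. All 8 mole-rat hearts lay below all 6 outgroup hearts. The average difference was -1.79 (SE 0.12, adjusted p = 1.82e-09 with limma), and guinea pig hearts held 4.93 times the mean scaled reads of naked and 11.7 times those of Damaraland mole-rats. Liver values were 9.17, 8.65, 8.23 and 8.99 in naked mole-rats, 5.73, 5.70, 5.89, 5.42 and 6.40 in Damaraland mole-rats, 8.95, 8.59 and 8.66 in guinea pigs and 8.58 and 8.68 in mice. The Damaraland livers stood apart there, and the naked mole-rat livers overlapped those of both outgroups. The naked minus guinea pig difference was 0.03 (SE 0.23), while the naked minus Damaraland difference was 2.93 (SE 0.20, adjusted p = 1.24e-09 with limma). The liver average difference of -1.39 (SE 0.17) was thus carried by Damaraland mole-rats.

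**Figure D2:**
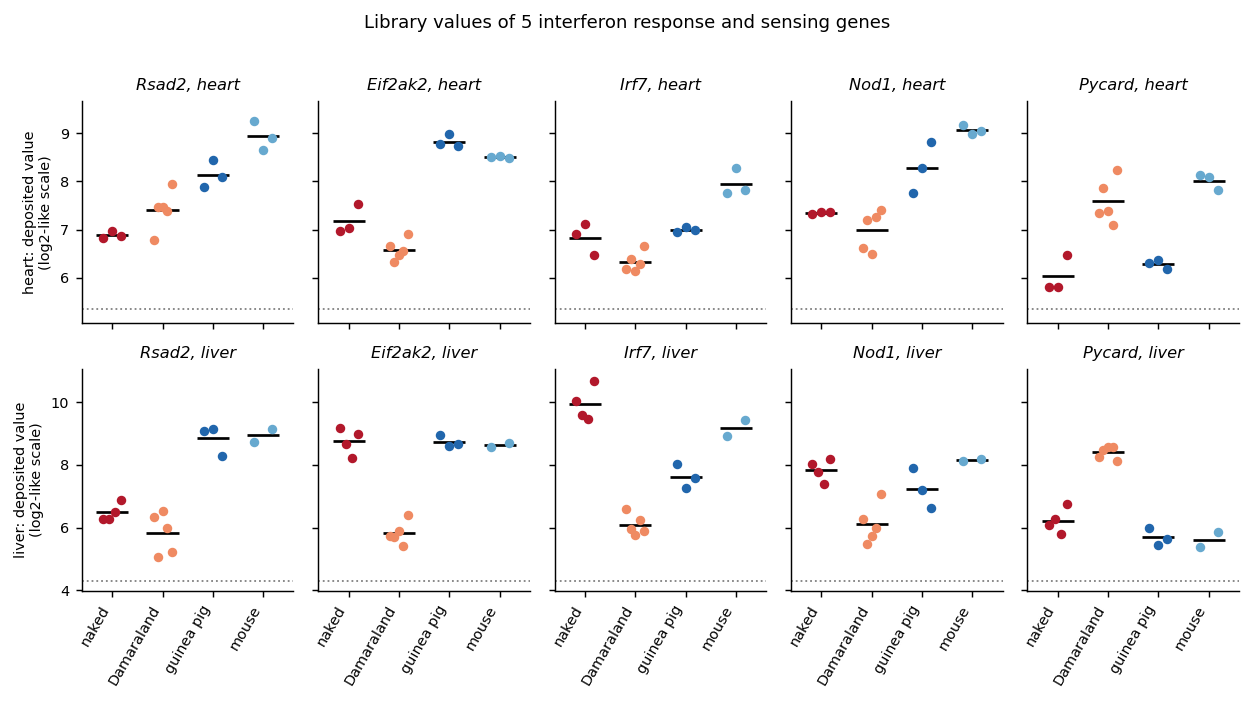
Deposited values (y axis, log2-like scale) of Rsad2, Eif2ak2, Irf7, Nod1 and Pycard in heart (top) and liver (bottom), by species (x axis). Each point is a library, horizontal lines are species means, and the dotted line is the value of a gene with 0 reads; levels can be compared within a panel but not between genes. Both mole-rats sit below both outgroups for liver Rsad2 and heart Eif2ak2, and the Damaraland livers sit apart for Eif2ak2, Irf7, Nod1 and Pycard.

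Isg20 encodes an exonuclease that degrades viral RNA. Its liver level read 6.02, 5.80, 6.91 and 7.39 in naked mole-rats, 7.35, 7.34, 7.38, 6.96 and 8.04 in Damaraland mole-rats, 5.96, 5.48 and 5.24 in guinea pigs and 6.05 and 5.97 in mice. The Damaraland livers lay above all outgroup livers, and the naked mole-rat livers spread across both. The average difference was 1.19 (SE 0.24, adjusted p = 0.000338 with limma). It fell to 0.98, under the size asked for, with a block for replicate number. In heart Isg20 was too low to be tested. It had 186, 60 and 93 reads in the mouse hearts and between 0 and 7 reads in each of the other 11 hearts. Adar encodes the enzyme that edits adenosine to inosine in double-stranded RNA. Its average difference was 0.95 (SE 0.14) in heart, just under the size asked for and past it with voom (1.09) and with quantile normalisation (1.01), and 0.32 (SE 0.16) in liver.

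Samhd1 encodes a hydrolase that lowers the supply of deoxynucleotides to viruses. Its heart level read 8.14, 8.12 and 7.72 in naked mole-rats, 7.00, 7.30, 7.14, 7.89 and 7.28 in Damaraland mole-rats, 8.20, 8.58 and 8.38 in guinea pigs and 9.13, 9.19 and 9.30 in mice. The mole-rat and outgroup hearts did not overlap, though the highest naked mole-rat heart came close to the lowest guinea pig heart. The average difference was -1.14 (SE 0.14, adjusted p = 1.69e-06 with limma). In liver it read 6.97, 6.80, 6.99 and 6.98 in naked mole-rats, 6.48, 6.10, 6.24, 6.19 and 6.94 in Damaraland mole-rats, 6.71, 6.98 and 6.26 in guinea pigs and 8.70 and 8.76 in mice. The mouse livers alone were high, and the other 3 species overlapped. The liver average difference was -1.03 (SE 0.15, adjusted p = 1.44e-05 with limma). It fell under the size asked for with array weights (-0.99) and without Damaraland liver replicate 2 (-0.99) or guinea pig liver replicate 2 (-0.95).

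The second comparison set the mole-rat species against each other. In liver 9 of 33 members were called. Irf7, Eif2ak2, Mavs, Stat2, Nod1, Ifih1 and Irf9 were higher in the naked mole-rat, and Pycard and Dhx58 were lower. Of all liver genes 34.2% were called in this contrast, 16.6% higher and 17.6% lower. The members had a positive difference in 23 of 33 cases with a median of 0.55, beside 48.6% of all genes and a median of -0.03. Naked mole-rat liver held the highest species mean for 13 of 33 members (25.1% of all genes) and Damaraland liver the lowest for 13 (21.5% of all genes). Mouse liver was the lowest for 12 (29.3% of all genes). Naked mole-rat heart held the highest mean for 5 of 28 members (25.5% of all genes) and mouse heart for 12 (28%). Damaraland heart held the lowest for 10 (22.5%). In heart 5 of 28 members were called, with Mavs higher and Ifngr2, Tlr3, Irf5 and Pycard lower in the naked mole-rat. Of all heart genes 29.4% were called, 14.2% higher and 15.2% lower. The median over members was 0.11 in heart, beside 0 over all genes. With voom, 15 members were called in liver (11 higher, 4 lower) and 12 in heart (6 higher, 6 lower).

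**Figure D3:**
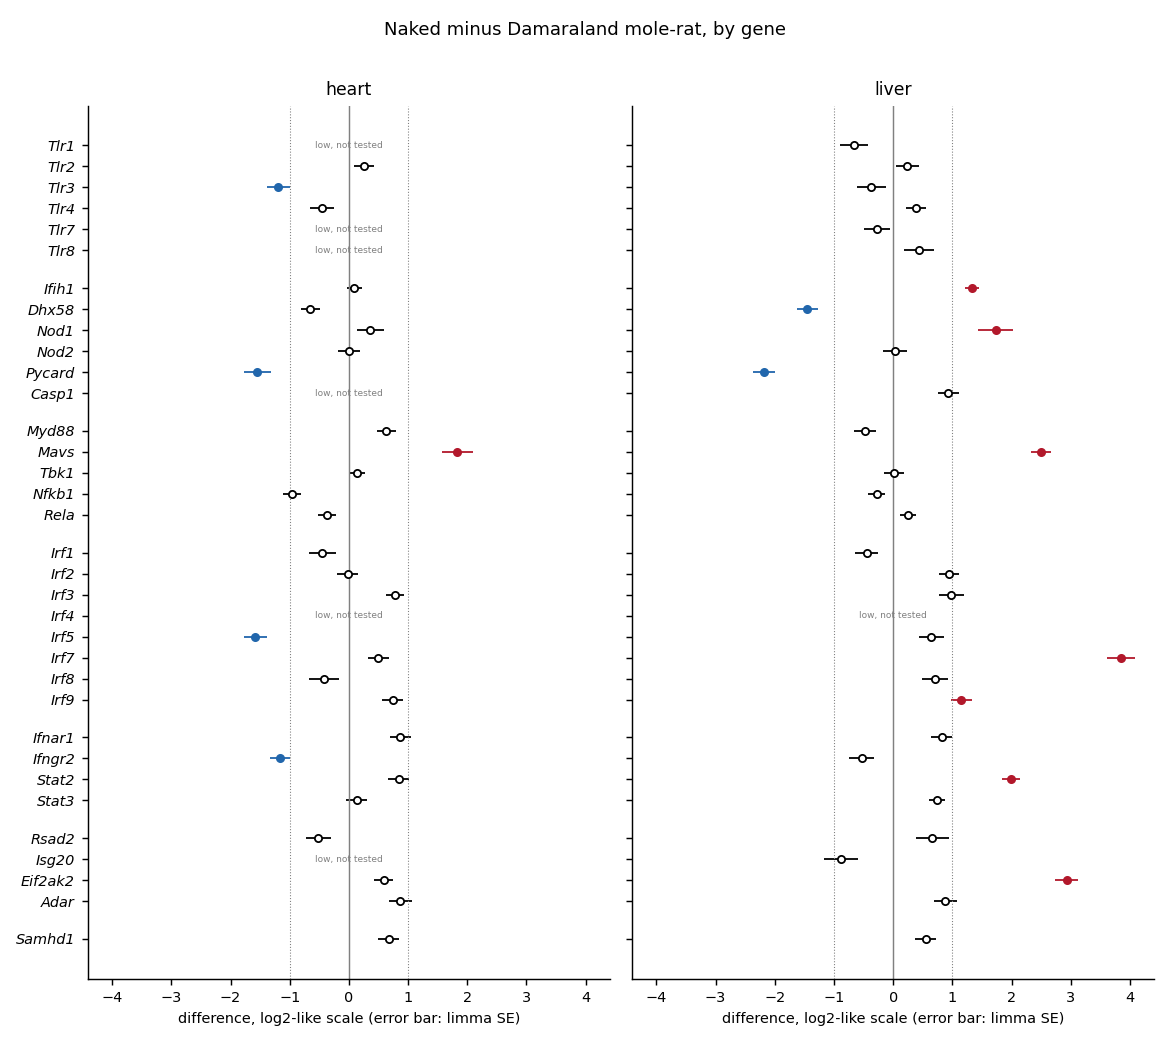
Naked minus Damaraland mole-rat difference on the log2-like scale (x axis) for each of the 34 members (y axis, grouped by role), in heart (left) and liver (right). Points are limma differences, bars are limma standard errors, dotted lines mark a difference of 1 in either direction, filled points were called (red higher, blue lower in the naked mole-rat), and members too low to be tested are marked. In liver 7 members lie past the right dotted line, led by Irf7 at 3.85, and Dhx58 and Pycard lie past the left one.

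Irf7 (ENSMUSG00000025498) is the interferon regulatory factor that amplifies the production of type I interferon and is itself induced by interferon. Values in liver were 10.04, 9.60, 9.46 and 10.66 in naked mole-rats, 6.59, 5.94, 5.76, 6.23 and 5.89 in Damaraland mole-rats, 8.01, 7.27 and 7.58 in guinea pigs and 8.91 and 9.44 in mice. The species did not overlap, with every Damaraland liver lowest and every naked mole-rat liver highest. The naked minus Damaraland difference was 3.85 (SE 0.24, adjusted p = 3.02e-10 with limma), a ratio of 27.8 in mean scaled reads. Heart Irf7 read 6.90, 7.11 and 6.48 in naked mole-rats, 6.19, 6.40, 6.14, 6.28 and 6.67 in Damaraland mole-rats, 6.96, 7.05 and 6.99 in guinea pigs and 7.75, 8.28 and 7.83 in mice. There the naked minus Damaraland difference was 0.50 (SE 0.17) (1.58 with voom, adjusted p = 0.00326, past the size asked for), and the mouse hearts were the high ones.

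Irf9 and Stat2 carry the interferon signal into the nucleus. Liver Stat2 read 11.93, 11.83, 11.57 and 12.11 in naked mole-rats, 9.51, 10.08, 9.93, 9.92 and 9.92 in Damaraland mole-rats, 11.25, 10.85 and 10.61 in guinea pigs and 9.80 and 9.95 in mice. Naked mole-rat livers were highest, and Damaraland livers overlapped mouse livers. The naked minus Damaraland difference was 1.99 (SE 0.16, adjusted p = 7.95e-09 with limma). Liver Irf9 read 9.41, 9.22, 9.20 and 10.00 in naked mole-rats, 8.03, 8.36, 8.28, 8.44 and 8.40 in Damaraland mole-rats, 7.63, 8.06 and 7.63 in guinea pigs and 8.68 and 9.19 in mice. The mole-rats did not overlap, and their difference was 1.15 (SE 0.18, adjusted p = 2.12e-05 with limma), or 0.97 without naked mole-rat liver replicate 4. In heart the same differences were 0.84 (SE 0.18) for Stat2 and 0.74 (SE 0.18) for Irf9, both short of the size asked for.

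Mavs, the mitochondrial adaptor of the cytosolic RNA sensors, was higher in the naked than in the Damaraland mole-rat in both tissues. In liver it read 10.77, 10.89, 10.62 and 11.04 in naked mole-rats, 8.03, 8.38, 8.10, 8.23 and 8.90 in Damaraland mole-rats, 9.25, 9.16 and 9.07 in guinea pigs and 10.44 and 10.17 in mice. No species overlapped another, and the difference was 2.50 (SE 0.17, adjusted p = 6.45e-10 with limma). In heart it read 11.13, 11.05 and 11.89 in naked mole-rats, 10.36, 9.60, 9.40, 9.40 and 8.86 in Damaraland mole-rats, 10.74, 10.51 and 10.54 in guinea pigs and 10.40, 10.34 and 10.36 in mice. Damaraland replicate 1 stood above the rest of its group and within the mouse values. The heart difference was 1.83 (SE 0.26, adjusted p = 1.13e-05 with limma), and the average differences between mole-rats and outgroups were -0.04 in heart and -0.15 in liver.

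Among the cytosolic RNA sensors, Ifih1 and Dhx58 went opposite ways in liver. Ddx58, a further such sensor outside the member list, was tested there and not called between the mole-rats. Ifih1, which binds long double-stranded RNA, read 9.50, 9.51, 9.54 and 9.57 in naked mole-rats, 8.22, 8.14, 8.06, 8.28 and 8.31 in Damaraland mole-rats, 8.83, 8.57 and 8.53 in guinea pigs and 10.07 and 10.42 in mice. The 4 species did not overlap, and the naked minus Damaraland difference was 1.33 (SE 0.12, adjusted p = 4.54e-08 with limma). Dhx58, a regulator that binds RNA but lacks the domain that signals to Mavs, read 7.28, 6.93, 6.82 and 7.78 in naked mole-rats, 8.92, 8.65, 8.59, 8.44 and 8.66 in Damaraland mole-rats, 8.13, 8.11 and 7.68 in guinea pigs and 7.79 and 7.87 in mice. The Damaraland livers were highest, and the difference was -1.45 (SE 0.18, adjusted p = 2.07e-06 with limma). In heart the naked minus Damaraland differences were 0.09 (SE 0.13) for Ifih1 and -0.65 (SE 0.16) for Dhx58. With voom the heart Dhx58 difference was -1.23 (adjusted p = 0.00692), past the size asked for.

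Nod1 senses fragments of bacterial peptidoglycan in the cytosol. The livers read 8.01, 7.77, 7.39 and 8.19 in naked mole-rats, 6.28, 5.47, 5.74, 5.99 and 7.08 in Damaraland mole-rats, 7.91, 7.19 and 6.62 in guinea pigs and 8.13 and 8.17 in mice. Damaraland livers were lowest, though replicate 5 reached above the lowest guinea pig. The naked minus Damaraland difference was 1.73 (SE 0.29, adjusted p = 5.45e-05 with limma). Values in heart were 7.32, 7.37 and 7.36 in naked mole-rats, 6.62, 7.19, 6.49, 7.26 and 7.40 in Damaraland mole-rats, 7.76, 8.28 and 8.81 in guinea pigs and 9.17, 8.99 and 9.04 in mice. All mole-rat hearts lay below all outgroup hearts, with an average difference of -1.50 (SE 0.17, adjusted p = 8.94e-07 with limma). The naked minus guinea pig difference of -0.93 (SE 0.26) kept Nod1 from being called in both mole-rats there. The related sensor Nod2 had average differences of 0.08 (SE 0.14) in heart and 0.41 (SE 0.17) in liver, the second of which passed the size asked for with voom (1.14, adjusted p = 0.0275).

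Pycard (ENSMUSG00000030793) encodes ASC, the adaptor through which inflammasome sensors activate caspase-1. Liver values were 6.09, 6.27, 5.78 and 6.74 in naked mole-rats, 8.24, 8.47, 8.57, 8.58 and 8.13 in Damaraland mole-rats, 6.00, 5.44 and 5.64 in guinea pigs and 5.38 and 5.85 in mice. The Damaraland livers stood far above the rest, at 7.03 times the mean scaled reads of naked mole-rats, 14.5 times those of guinea pigs and 16.2 times those of mice. The naked minus Damaraland difference was -2.18 (SE 0.19, adjusted p = 2.86e-08 with limma), and the average difference between mole-rats and outgroups was 1.65 (SE 0.16, adjusted p = 1.11e-07 with limma). The sum of the 5 neutrophil markers was also highest in Damaraland liver, at 264 to 625 scaled reads against 25.4 to 87.2 in the other livers. Only 2 of them were high enough to be tested in liver. Of these Ngp was called, higher in mole-rats on average and lower in the naked than in the Damaraland mole-rat. Camp was at 0 in mouse liver, and the part of these markers in the Pycard difference was not tested. In heart Pycard read 5.82, 5.81 and 6.48 in naked mole-rats, 7.35, 7.86, 7.39, 7.10 and 8.24 in Damaraland mole-rats, 6.31, 6.37 and 6.18 in guinea pigs and 8.13, 8.09 and 7.82 in mice. Naked mole-rats and guinea pigs were both low and overlapped, and the naked minus Damaraland difference was -1.55 (SE 0.23, adjusted p = 1.82e-05 with limma). Casp1, the caspase it activates, was too low to be tested in heart, and in liver its naked minus Damaraland difference was 0.93 (SE 0.18), the other way from Pycard and past the size asked for with voom (1.42) and quantile normalisation (1.03).

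The third comparison asked which members were set apart in a single species, called with the same sign against each of the other 3. For the Damaraland mole-rat these were 4 of 33 in liver, with Eif2ak2, Irf7 and Nod1 lower and Pycard higher, against 8.81% of all genes. Without Damaraland liver replicate 2 or guinea pig liver replicate 1, Nod1 was no longer among them. In heart it was 1 of 28, Irf5, which was higher, against 6.76% of all genes. With the filter at 2 above the value of 0 reads Irf5 was not tested and the heart count was 0. A block for replicate number also gave a heart count of 0. For the naked mole-rat these were Ifngr2 and Tlr3 in heart, both lower, against 9.02% of all genes, and 0 of 33 in liver, against 10.3%. The liver count was also 0 at an unadjusted p under 0.05 with limma, with a difference of at least 1 still asked for. It was 1 (Casp1) with voom and 6 without the size threshold. For the guinea pig it was 0 in both tissues, against 6.61% of all genes in heart and 9.38% in liver. These counts were 0 as well at an unadjusted p under 0.05 with limma and the same size asked for. With voom they were 3 in heart (Irf3, Irf8 and Tlr2, all lower) and 0 in liver. Without the size threshold they were 4 in heart and 1 in liver. For the mouse it was Ifngr2 in heart, higher, against 10.4% of all genes, and 6 of 33 in liver, against 12.2%. Irf3, Irf5 and Samhd1 were higher and Tlr1, Tlr3 and Tlr8 lower in mouse liver. With voom the heart counts were 5 for the Damaraland mole-rat, 4 for the naked mole-rat and 4 for the mouse, and the Damaraland liver count was 7.

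Ifngr2 (ENSMUSG00000022965) encodes the chain of the interferon gamma receptor that is needed for signalling. In heart it read 7.72, 7.61 and 7.94 in naked mole-rats, 9.26, 9.03, 8.85, 8.62 and 8.79 in Damaraland mole-rats, 9.04, 8.54 and 8.94 in guinea pigs and 11.96, 12.04 and 12.19 in mice. Mouse hearts were far above and naked mole-rat hearts below all others, while Damaraland mole-rats and guinea pigs overlapped. Mean scaled reads in mouse heart were 29.6 times those of naked mole-rats, 10.3 times those of Damaraland mole-rats and 11.0 times those of guinea pigs. The average difference between mole-rats and outgroups was -2.12 (SE 0.12, adjusted p = 3.42e-10 with limma). The guinea pig minus mouse difference was -3.23 (SE 0.19, adjusted p = 3.27e-10 with limma) and the naked minus Damaraland difference -1.16 (SE 0.17, adjusted p = 1.5e-05 with limma). The naked minus guinea pig difference of -1.08 (SE 0.19) was no longer called without guinea pig heart replicate 1. In liver the mouse had no such excess: it read 8.95, 8.63, 7.73 and 8.42 in naked mole-rats, 8.82, 8.65, 9.14, 9.43 and 8.77 in Damaraland mole-rats, 8.47, 8.12 and 8.22 in guinea pigs and 8.65 and 8.49 in mice. Ifnar1, a chain of the type I interferon receptor, had naked minus Damaraland differences of 0.87 (SE 0.18) in heart and 0.82 (SE 0.18) in liver.

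Of the 6 Toll-like receptors tested in liver, 3 (Tlr1, Tlr3 and Tlr8) were set apart as low in the mouse. Tlr2 and Tlr7 were not called in any liver contrast, with average differences between mole-rats and outgroups of 0.55 (SE 0.17) and -0.12 (SE 0.19). Tlr3, the endosomal receptor for double-stranded RNA, read 9.15, 9.05, 8.30 and 8.32 in naked mole-rat livers, 8.73, 9.04, 8.97, 9.50 and 9.13 in Damaraland, 8.95, 8.22 and 7.84 in guinea pig and 7.09 and 6.71 in mouse livers. The other 3 species overlapped above the mouse, and mean scaled reads were 3.56 to 6.0 times those of the mouse. The guinea pig minus mouse difference was 1.43 (SE 0.32, adjusted p = 0.00101 with limma), and the average difference between mole-rats and outgroups was 1.27 (SE 0.20, adjusted p = 2.36e-05 with limma). Tlr8, a receptor for single-stranded RNA, read 7.56, 7.39, 7.04 and 7.20 in naked mole-rat livers, 7.09, 7.10, 6.56, 6.64 and 6.88 in Damaraland, 7.64, 6.65 and 6.96 in guinea pig and 6.13 and 4.84 in mouse livers. Its mouse values were far apart, and without mouse liver replicate 2 it was no longer set apart in the mouse. Tlr1, which pairs with Tlr2 to bind bacterial lipopeptides, read 6.64, 6.77, 5.59 and 6.15 in naked mole-rat livers, 6.94, 7.00, 6.55, 7.01 and 7.21 in Damaraland, 6.46, 6.13 and 7.05 in guinea pig and 4.99 and 5.52 in mouse livers. The lowest naked mole-rat liver came close to the mouse, and the naked minus mouse difference of 1.03 (SE 0.31, adjusted p = 0.00831 with limma) was near the size asked for. Tlr1 left the set without naked mole-rat liver replicate 1 or 2 or mouse liver replicate 1, and under quantile normalisation. Tlr4, the receptor for lipopolysaccharide, had an average difference of 0.98 (SE 0.14) in liver and of -0.11 (SE 0.15) in heart, the first of which passed the size asked for with voom (1.24) and array weights (1.07).

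Irf3 and Irf5, the regulatory factors that Toll-like receptors and cytosolic sensors activate, were high in mouse liver. Irf3, which starts type I interferon transcription, read 8.48, 8.57, 8.57 and 9.06 in naked mole-rat livers, 8.06, 7.85, 7.43, 7.48 and 7.60 in Damaraland, 6.76, 7.88 and 7.05 in guinea pig and 9.56 and 9.85 in mouse livers. The naked minus mouse difference was -1.04 (SE 0.27, adjusted p = 0.00287 with limma), near the size asked for. Irf3 left the set without mouse liver replicate 2 or naked mole-rat liver replicate 1. It also left with median centring, quantile normalisation and a block for replicate number. In heart the order was different: Irf3 read 8.99, 9.11 and 8.98 in naked mole-rats, 7.90, 8.29, 8.15, 8.37 and 8.52 in Damaraland mole-rats, 6.77, 7.24 and 6.98 in guinea pigs and 7.82, 7.80 and 7.85 in mice. All 8 mole-rat hearts lay above all 6 outgroup hearts, by a small margin for the lowest Damaraland heart, and the average difference was 1.23 (SE 0.12, adjusted p = 9.25e-08 with limma).

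Irf5 drives inflammatory cytokine genes in myeloid cells. In liver it read 6.50, 6.78, 5.95 and 7.13 in naked mole-rats, 6.06, 5.92, 5.67, 5.88 and 6.22 in Damaraland mole-rats, 7.03, 6.84 and 6.50 in guinea pigs and 8.18 and 8.35 in mice. The mouse livers were highest and the average difference was -1.25 (SE 0.17, adjusted p = 6.06e-06 with limma). The hearts read 6.27, 6.59 and 6.80 in naked mole-rats, 7.59, 7.93, 8.32, 8.55 and 8.27 in Damaraland mole-rats, 7.08, 7.01 and 6.81 in guinea pigs and 6.81, 6.93 and 6.89 in mice. Damaraland hearts stood above all others, at 6.83 times the mean scaled reads of naked mole-rats, 3.73 times those of guinea pigs and 4.26 times those of mice. The naked minus Damaraland difference was -1.58 (SE 0.19, adjusted p = 2.42e-06 with limma), and the one to the guinea pig was 1.17 (SE 0.19, adjusted p = 5.77e-05 with limma). Macrophage markers reached their highest sum, 3548 scaled reads, in a Damaraland heart and overlapped those of guinea pigs and mice, and their part in the Irf5 difference was not tested.

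Tlr3 in heart was the other member set apart in the naked mole-rat. It read 6.43, 6.24 and 6.75 in naked mole-rats, 8.07, 7.82, 7.57, 7.47 and 7.39 in Damaraland mole-rats, 8.45, 8.13 and 7.76 in guinea pigs and 8.07, 7.72 and 7.89 in mice. Every naked mole-rat heart was below every other heart, and the other 3 species overlapped. The mean scaled reads of the other species were 4.95 to 7.73 times those of the naked mole-rat, and the naked minus Damaraland difference was -1.19 (SE 0.19, adjusted p = 4.63e-05 with limma). The average difference of -0.93 (SE 0.14) was called without naked mole-rat heart replicate 3, which raised the heart count to 7, and with voom (-1.77).

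**Figure D4:**
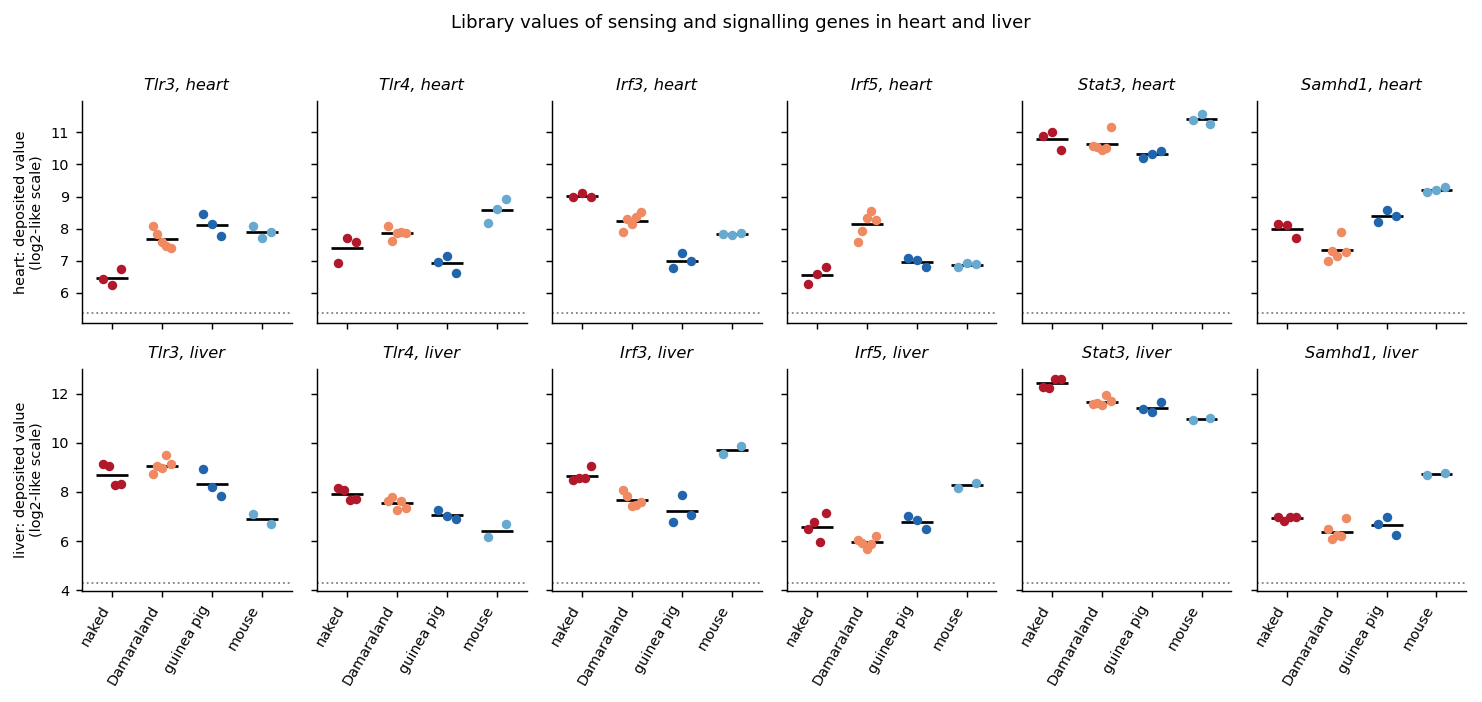
Deposited values (y axis, log2-like scale) of Tlr3, Tlr4, Irf3, Irf5, Stat3 and Samhd1 in heart (top) and liver (bottom), by species (x axis). Each point is a library, horizontal lines are species means, and the dotted line is the value of a gene with 0 reads; levels can be compared within a panel but not between genes or between tissues. Mouse points lie high in heart and low in liver for Tlr4 and Stat3, and low in heart and high in liver, relative to the naked mole-rat, for Irf3.

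Among the members too low to be tested in heart, naked mole-rats had few or no reads of several genes of myeloid or lymphoid cells. Tlr7, a receptor for single-stranded RNA, had 2, 0 and 0 reads in naked mole-rat hearts, 24, 25, 9, 27 and 0 in Damaraland, 89, 42 and 31 in guinea pig and 94, 83 and 49 in mouse hearts. Tlr8 had 0, 0 and 1 reads, 59, 34, 46, 36 and 11, 19, 6 and 11, and 78, 34 and 20 in the same order of species. Irf4, which acts in lymphoid and myeloid cells, had 2, 1 and 0 reads, 42, 17, 85, 20 and 9, 21, 15 and 12, and 47, 17 and 16. Every naked mole-rat heart was thus at 0 to 2 reads of these genes. The macrophage marker sums given above were lowest in the same hearts, no macrophage marker was at 0 over those 3 libraries, and their part was not tested. Casp1 went the other way from Tlr7, Tlr8 and Irf4. It read 6.88, 6.99 and 7.01 in naked mole-rat hearts. Its values were 6.05 to 6.73 in Damaraland, 5.36 to 5.93 in guinea pig and 6.30 to 6.57 in mouse hearts. Tlr1 overlapped among all species, between 5.36 and 6.96. Its mean scaled reads in naked mole-rat heart were 1.46 times those of Damaraland mole-rats, 2.77 times guinea pigs and 2.85 times mice. For Tlr2, which was tested, the same ratios were 1.46, 3.18 and 1.14. Irf4 was also too low to be tested in liver, where its values lay between 4.29 and 5.80.

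Of the remaining members, the adaptor Myd88 had average differences of -0.38 (SE 0.12) in heart and 0.54 (SE 0.16) in liver. Its Damaraland minus mouse difference of 1.18 (SE 0.24) in liver was called. Nfkb1, a subunit of NF-kappa-B, was lower in naked mole-rat heart than in guinea pig heart by a called difference of -1.01 (SE 0.16) and than in mouse heart by one of -1.09 (SE 0.16). Its naked minus Damaraland difference there was -0.96 (SE 0.15), just under the size asked for. Rela, another subunit, had an average difference of -0.61 (SE 0.12) there. The kinase Tbk1 read 7.93 to 8.62 in the mole-rat livers and 8.94 to 9.63 in the outgroup livers without overlap, at an average difference of -0.90 (SE 0.14). Stat3, the transcription factor of the interleukin-6 response in liver, had average differences of -0.15 (SE 0.13) in heart and 0.85 (SE 0.12) in liver. Irf1, Irf2 and Irf8 had average differences between -0.11 and 0.52 in the tissues, of which the highest, Irf8 in heart, was called with voom (1.29, adjusted p = 0.00756). Irf1 was called in no contrast, and Irf2 had a naked minus Damaraland difference of 0.94 (SE 0.17) in liver. The difference between the highest and the lowest species mean had a median of 1.15 over members in heart, beside 1.41 over all genes, and of 1.68 in liver, beside 1.58.

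The other genes of these pathways were taken from a pair of further lists. Of 58 other interferon-induced symbols 29 have a row in the tables, and of 50 other sensing and signalling symbols 38 do. Those without a row, among them Ifit1, Mx1, Oas1a and Ifitm3, were not analysed here, so the counts below do not cover them. Of 26 other interferon-induced genes tested in heart, 10 were called between mole-rats and outgroups, all lower in mole-rats, against 12.6% of all genes that were lower, and the median difference was -0.76, beside -0.01 over all genes. The 7 leukocyte markers tested in heart had a median difference of -0.76 with 2 called lower (Coro1a and Lcp1), the 5 macrophage markers tested had one of -0.68 with C1qb called lower, and their part in the heart counts was not tested. In liver 2 of 29 were higher (Trim14 and Parp14) and 16 lower, against 15.1% and 13% of all genes, with a median of -1.05, beside 0.02. The leukocyte and macrophage markers had medians of -0.16 and -0.01 there, with Cd163 and Cd5l called lower among the 6 macrophage markers. Cd163 was at 0 in naked mole-rat liver. The 2 T and NK cell markers tested had a median of -1.65 with Cd3e called lower. The 1 B cell marker tested, Cd79a, was called lower at -1.15. The 2 neutrophil markers tested had a median of 1.2 with Ngp called higher. The part of these markers in the liver counts was not tested. With voom the heart counts were 2 higher and 14 lower. Psmb10, a subunit of the immunoproteasome, had species means of 6.28 in naked mole-rat, 7.47 in Damaraland, 9.13 in guinea pig and 9.35 in mouse heart, an average difference of -2.36 (SE 0.11, adjusted p = 2.67e-11 with limma). Its liver difference was -2.22 (SE 0.17, adjusted p = 3.67e-09 with limma), and Tapbp, which holds class I molecules ready for peptide, was also lower, with differences of -1.94 (SE 0.13) in heart and -2.18 (SE 0.16) in liver. Sp100, a nuclear body protein, had a heart difference of -1.97 (SE 0.12), and Shisa5 a liver difference of -2.42 (SE 0.14). The rule of 4 calls of the same sign held for Psmb10, Sp100 and Shisa5 in heart and Psmb10, Tap1, Cxcl9 and Shisa5 in liver, all lower, which is 3 of 26 and 4 of 29 against 4.68% and 6.29% of all genes. Trim14 ran the other way in liver, at 2.33 (SE 0.14, adjusted p = 3.35e-10 with limma).

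Between the mole-rats, 10 of these 29 genes were higher and 1 lower in naked mole-rat liver, the 10 being Cxcl10, Ifit3, Lgals3bp, Oasl1, Oasl2, Psmb10, Psmb9, Shisa5, Trim14 and Usp18. Of all liver genes 16.6% were higher and 17.6% lower. In heart 5 were higher and 3 lower, against 14.2% and 15.2% of all genes. The heart counts were 3 and 1 without naked mole-rat heart replicate 3 and with array weights, and 11 and 4 with voom. Of the other sensing and signalling genes, 2 of 35 were higher (Ikbkb and Gsdmd) and 5 lower in mole-rat hearts, and 1 of 38 was higher (Cd14) and 7 lower in mole-rat livers. These 7 of 35 and 8 of 38 called stood against 23.4% and 28.1% of all genes. With voom the liver counts were 2 higher and 13 lower. Irak1, a kinase that acts below Myd88, had an average difference of -1.99 (SE 0.16, adjusted p = 1.2e-08 with limma) in heart. Azi2, an adaptor of Tbk1, had one of -2.20 (SE 0.18, adjusted p = 1.36e-08 with limma) in liver. Cd14, the co-receptor of Tlr4, had liver means of 12.08 in naked mole-rat, 10.03 in Damaraland, 10.63 in guinea pig and 5.84 in mouse, an average difference of 2.82 (SE 0.15, adjusted p = 3.7e-11 with limma). It was thus lowest in the mouse, as Tlr4 was.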

How the data were processed

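Total RNA depleted of ribosomal RNA was sequenced from 14 heart and 14 liver samples of 4 species. The authors deposited a table for each tissue of variance-stabilised expression (log2-like), indexed by mouse Ensembl gene. The submitters' processing notes name cutadapt, Salmon 013.1, DESeq2 and the genome build GRCm38; the order of steps, the transcript references and the matching of genes between species are not given in the sources used here. The tables were normalised separately, so tests stayed within a tissue. They hold 26 further columns of other series, which were not used. Symbols were matched for 13921 of 13928 rows.

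The transform was inverted, which gave whole reads for 100% of values in every library (within 0.001). These gave the depth, the scaled reads and the voom alternative. The deposited log2 values were fitted with limma 3.58.1 in R 4.3.3: species means, eBayes with a trend, and p-values adjusted by Benjamini-Hochberg over the 10667 heart or 10887 liver genes whose mean lay at least 1 above the value of a gene with 0 reads. Calls needed an adjusted p under 0.05 and a difference of at least 1. The labels name separate animals as replicates. The procedure was tested on simulated data in which a set of genes with higher read numbers was changed by known folds in both mole-rats. That test does not cover genes with few reads, or data in which many genes differ between species. Members and lists were chosen with earlier results of these data known, so no test of a list is given. Genes given in full were members called in both mole-rats or in a single species, then those called on average or between mole-rats; of the other pathway lists, the largest average differences among those called. Promoter sequences were not analysed here.

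Alternatives were other filters, no size threshold, median centring, quantile normalisation, other variance models, array weights, a replicate block, voom and leaving out each library.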

Additional observations from a re-analysis of the deposited data

Results flagged for a closer look

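Among 102 groups of 4 or 5 libraries checked for a value that stands apart, 9 held one, where chance gives about 1 in 20. In Damaraland heart replicate 5, Nfkb1 read 9.87 against 9.34 to 9.46 in the other 4 animals, and Stat3 read 11.16 against 10.44 to 10.57. In Damaraland liver, Adar read 10.01 in replicate 5 against 9.36 to 9.49, Casp1 read 6.20 in replicate 2 against 5.92 to 6.00, and Stat2 read 9.51 in replicate 1 against 9.92 to 10.08. In naked mole-rat liver replicate 4, Irf3 read 9.06 against 8.48 to 8.57 and Tbk1 read 7.93 against 8.52 to 8.62. Samhd1 read 6.80 in naked mole-rat liver replicate 2 against 6.97 to 6.99, and Tlr2 read 6.32 in replicate 3 against 7.24 to 7.26.

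Pairs of a gene and a species contrast were compared between the tissues. Of the 196 pairs of the 28 members tested in both tissues, 15 pairs of 9 genes (7.65%) had every library of one species above the other in heart and below it in liver, or the reverse. The share over all 10109 genes tested in both tissues was 7.68%, so the members did this at about the rate of all genes. The difference between tissues was not tested, because the tables were normalised separately. In each of the following the heart difference comes first and the liver difference second. Naked mole-rat minus mouse gave 1.20 and -1.04 for Irf3, -1.12 and 0.76 for Irf7, -0.62 and 1.45 for Stat3, -1.42 and 1.80 for Tlr3, and -1.17 and 1.49 for Tlr4. Damaraland mole-rat minus mouse gave 0.42 and -2.02 for Irf3, 1.26 and -2.31 for Irf5, -0.76 and 1.18 for Myd88, -0.75 and 0.71 for Stat3, and -0.71 and 1.11 for Tlr4. Guinea pig minus mouse gave 0.23 and -1.15 for Mavs, 0.40 and -0.49 for Rela, -1.08 and 0.46 for Stat3, and -1.65 and 0.64 for Tlr4. Damaraland mole-rat minus guinea pig gave 1.17 and -0.84 for Irf5. Of these 15 pairs, 14 involve the mouse, and these contrasts share the mouse libraries.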

How the results depend on the processing

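No called difference of a member between mole-rats and outgroups, or between the mole-rats, changed sign under any alternative run. The signs of the other species contrasts were not checked. Without the size threshold the members called rose in heart to 17 between mole-rats and outgroups, 17 between the mole-rats, 4 in both mole-rats, 7 for the naked mole-rat alone, 7 for the Damaraland mole-rat, 4 for the guinea pig and 8 for the mouse, and in liver to 20, 22, 4, 6, 10, 1 and 10 in the same order. With voom the same heart counts were 11, 12, 3, 4, 5, 3 and 4, and the liver counts that moved by over 1.5 times were 12 between mole-rats and outgroups, 15 between the mole-rats, 1 for the naked and 7 for the Damaraland mole-rat alone. With a filter at 2 above the value of 0 reads, the heart counts were 3 between the mole-rats and 0 for the Damaraland mole-rat alone, since Irf5 and Pycard were then not tested. With no filter the mouse heart count was 2 (Isg20 added), as with array weights (Irf7 added), and array weights gave 1 (Stat2) for the naked mole-rat liver alone.

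Whether replicate numbers pair the libraries was not settled. Deviations from species means of same-numbered libraries correlated at 0.000 on average in heart and 0.001 in liver. Positive and negative pairs cancel in such a mean, which was also 0 for different-numbered libraries, so it cannot decide. Correlations over 0.1 were found for 2 of 18 same-numbered and 9 of 54 different-numbered heart pairs. For liver pairs these were 5 of 16 and 10 of 55. With the replicate block the Damaraland heart count was 0, the mouse liver count was 5 (Irf3 lost), and Isg20 in liver fell to 0.98 between mole-rats and outgroups; no other call of a member was lost. Of the other pathway genes the block lost Cxcl10 between mole-rats and outgroups in liver, and Tap2 in heart and Traf3 in liver between the mole-rats.

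Leaving out each library in turn, the heart counts in the same order ranged from 6 to 7, 5 to 6, 1 to 2, 1 to 3, 1 to 2, 0 to 0 and 1 to 2, and the liver counts from 6 to 9, 9 to 12, 1 to 1, 0 to 1, 3 to 5, 0 to 0 and 4 to 6. Libraries that moved a count by over 1.5 times were guinea pig heart replicate 1 (2 in both mole-rats, 1 for the naked mole-rat alone), Damaraland heart replicate 1 (2 for the Damaraland mole-rat alone, Mavs added), guinea pig heart replicate 3 and mouse heart replicates 1 and 3 (2 for the mouse alone). In liver they were guinea pig replicate 1, naked mole-rat replicate 3 and mouse replicate 2 (1 for the naked mole-rat alone). Leaving out a mouse liver leaves 1 mouse, whose spread is assumed to be that of the other species. The same alternatives were applied to the 2 lists of other pathway genes after the data were seen; their counts between mole-rats and outgroups ranged from 8 to 12 (interferon-induced, heart) and 15 to 19 (liver) when each library was left out. Mouse liver rests on 2 animals, and low read numbers limit Tlr7, Tlr8, Irf4 and Isg20 in heart. Where no cause is stated for a change above, the cause was not tested.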
